A study of Mus musculus with 13 samples.

Results

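10 genes of the NRF2 response and of glutathione metabolism were followed through the liver RNaseq of alcohol-fed ASAH mice: Nfe2l2, Keap1, Nqo1, Gclc, Gclm, Hmox1, Txnrd1, Srxn1, Gsta4 and Gstm1. They were chosen by name, as the 10 genes of 53392 in the count table whose mouse symbol is one of these. All 10 had enough counts to be tested. Whole-liver RNA of 13 female mice was sequenced from poly(A)-selected, stranded libraries. Besides mice with an induced transgene, they included controls, mice that lack the transgene or that lack the inducer. Library size after assignment to genes had a median of 24454043 counts and ran from 17819486 to 35358711.

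The 3 groups shared most of their genetics and diet. Every mouse was homozygous for a Rosa26 reverse tetracycline transactivator (rtTA) behind a loxP-stop-loxP cassette and for Albumin-Cre, and took 28% of its calories from ethanol in a liquid diet for 4 weeks. The animals were young adult littermates. ASAH+ mice also carried acid ceramidase, ASAH1, under a tetracycline response element, and doxycycline (Dox) in the diet switched it on in hepatocytes alone. The groups were 4 ASAH- Etoh-Dox mice, which had Dox but no ASAH1 transgene, 5 ASAH+ Etoh-Dox mice, in which the transgene was induced, and 4 ASAH+ Etoh mice, which carried the transgene and had no Dox. The design text gives 4 mice per group, and all 13 mice with counts were used. No group was free of ethanol, so a response to ethanol itself was not measured. The sample titles of ASAH+ mice state the opposite Dox treatment to their descriptions and induction labels, and the latter were used. The Asah1 level matched them. It was 10314, 9668, 15134, 12725 and 15935 CPM, the count scaled to library size, in ASAH+ Etoh-Dox mice, 40.04 to 55.0 CPM in ASAH- Etoh-Dox mice and 44.2 to 48.3 CPM in ASAH+ Etoh mice.

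NRF2, the product of Nfe2l2, is a transcription factor that KEAP1 holds in the cytoplasm and delivers for degradation. Oxidants and electrophiles modify cysteines of KEAP1, after which NRF2 builds up, enters the nucleus and pairs with small MAF proteins on antioxidant response elements. Its targets make and use glutathione, reduce thioredoxin and detoxify quinones, and in liver this response meets reactive products of ethanol metabolism.

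None of the 10 genes passed the test in any of the 3 comparisons, and 1 of them, Gsta4, had groups of mice that did not overlap. In edgeR, 0 of 10 had an adjusted p under 0.1 between ASAH+ Etoh-Dox and ASAH- Etoh-Dox mice, against 0.014% of the 14317 genes tested, which were Asah1 and Sod1. The same number, 0 of 10, passed between ASAH+ Etoh-Dox and ASAH+ Etoh mice, again against 0.014%, the same genes. It was also 0 of 10 between ASAH- Etoh-Dox and ASAH+ Etoh mice, where mt-Co2 and mt-Co3 made up the 0.014%. DESeq2 and limma-voom called 0 of the 10 as well, although DESeq2 on all 13 mice gave no adjusted p for 6 of them between ASAH+ Etoh-Dox and ASAH+ Etoh mice.

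At an unadjusted p under 0.05 in edgeR, 0 of 10 stood out between ASAH+ Etoh-Dox and ASAH- Etoh-Dox mice, against 2.86% of all genes. The count was 0 of 10 between ASAH+ Etoh-Dox and ASAH+ Etoh mice, against 7.29%. It was 1 of 10, Gsta4, between ASAH- Etoh-Dox and ASAH+ Etoh mice, against 9.19%. Groups did not overlap for 0 of 10 genes in the first of these comparisons, against 0.44% of all genes higher and 0.447% lower. They did not overlap for 0 of 10 in the second, against 1.09% higher and 1.49% lower, and for Gsta4 alone in the third, where it was lower, against 3.09% higher and 2.4% lower. Any 2 of the comparisons share a group of mice, so that their values are not independent of each other.

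**Figure D1:**
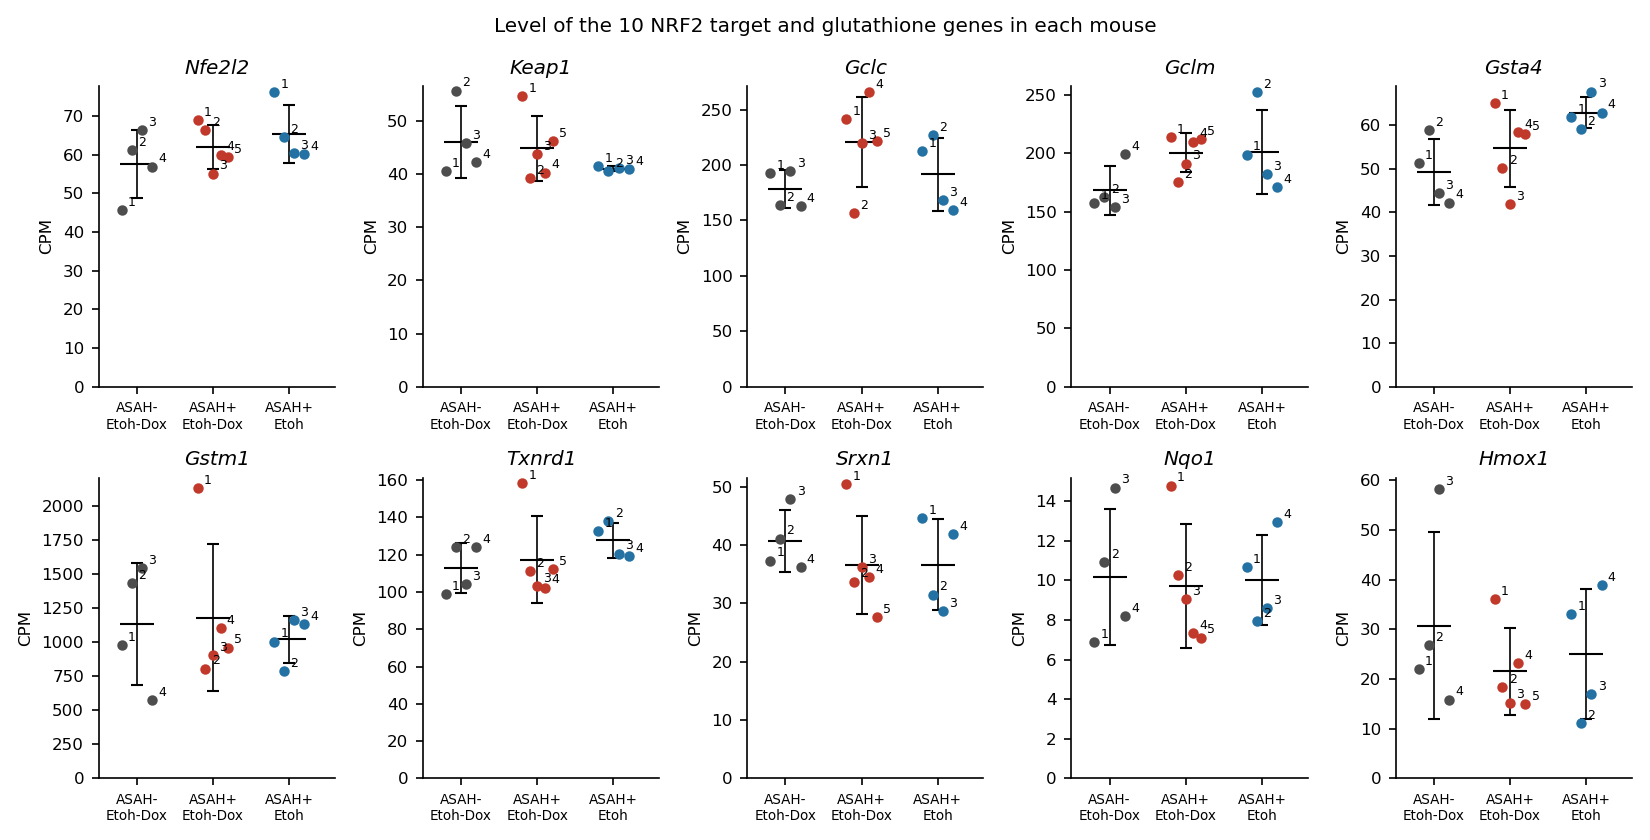
Level in CPM of each of the 10 genes in every mouse, with the mouse number beside each point and the mean and SD of its group as a bar, on axes that start at 0. Groups overlap in every panel except for ASAH- Etoh-Dox and ASAH+ Etoh mice in Gsta4, and ASAH+ Etoh-Dox mouse 1 is the highest point for Gstm1, at 2131 CPM, and for Txnrd1, at 158 CPM.

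Levels of different genes were compared per kilobase of exon, counted over all annotated transcripts of a gene. The transcripts in use can be shorter, so a close order of genes is approximate. Gstm1 was by far the most abundant of the 10, at a mean of 758 CPM per kb over the 13 mice (390.6 to 1447). Gclc came next at 52.8 CPM per kb, followed by Gsta4 at 43.8 and Gclm at 30.3. Txnrd1 (16.8), Nfe2l2 (16.2), Hmox1 (14.5) and Srxn1 (13.4) lay close together, and Keap1 (9.38) and Nqo1 (6.41) were lowest. Of the neighbours in this order, Gstm1 and Gclc, and Gclm and Txnrd1, had ranges over the 13 mice that did not overlap. The ranges of all other neighbours overlapped. Within single mice, Gsta4 was still above Gclm and Keap1 above Nqo1 in 13 of 13, whereas the other 5 pairs of neighbours changed order in at least 1 mouse.

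The spread between mice of a group differed between genes. Hmox1 had coefficients of variation of 61.4%, 40.5% and 52.4% in ASAH- Etoh-Dox, ASAH+ Etoh-Dox and ASAH+ Etoh mice, the widest of the 10 in the first and the last group. For Gstm1 they were 39.4%, 45.9%, the widest in ASAH+ Etoh-Dox mice, and 16.9%, and for Nqo1 33.9%, 32.1% and 22.6%. Gclc had values of 9.69%, 18.3% and 17.1%, and Gclm of 12.5%, 8.28% and 17.9%. Both varied less than Hmox1 and Nqo1 in every group, and less than Gstm1 in both Dox-fed groups but not in ASAH+ Etoh mice. The narrowest value of all was for Keap1 in ASAH+ Etoh mice, 0.967%.

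Nfe2l2 (ENSMUSG00000015839, chr2:75675513-75704641, minus strand, coordinates on GRCm38), which encodes NRF2, was expressed at 45.7, 61.2, 66.4 and 56.9 CPM in ASAH- Etoh-Dox mice, at 68.9, 66.5, 55.1, 60.01 and 59.5 CPM in ASAH+ Etoh-Dox mice and at 76.2, 64.5, 60.4 and 60.2 CPM in ASAH+ Etoh mice. The groups overlapped, with 1 low ASAH- Etoh-Dox mouse and 1 high ASAH+ Etoh mouse at the ends. Its log2 fold change was 0.11 ± 0.11 (SE) in ASAH+ Etoh-Dox over ASAH- Etoh-Dox mice, with an adjusted p of 0.9997 in edgeR. Over ASAH+ Etoh mice it was -0.08 ± 0.11 for ASAH+ Etoh-Dox and -0.18 ± 0.12 for ASAH- Etoh-Dox mice. Keap1 (ENSMUSG00000003308, chr9:21229730-21239361, minus strand), the adaptor that sends NRF2 to a CUL3 ubiquitin ligase, stood at 40.5, 55.7, 45.8 and 42.2 CPM in ASAH- Etoh-Dox mice, at 54.6, 39.2, 43.8, 40.3 and 46.2 CPM in ASAH+ Etoh-Dox mice and at 41.5, 40.5, 41.2 and 40.9 CPM in ASAH+ Etoh mice. The 4 ASAH+ Etoh mice were nearly equal, while 1 mouse in each Dox-fed group exceeded 50 CPM. Its log2 fold change was 0.17 ± 0.11 in ASAH- Etoh-Dox over ASAH+ Etoh mice (edgeR adjusted p of 0.705). For ASAH+ Etoh-Dox mice it was 0.13 ± 0.11 over ASAH+ Etoh and -0.04 ± 0.11 over ASAH- Etoh-Dox mice.

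NRF2 and its MAF partners bind antioxidant response elements, and the windows around starts in the RefSeq promoter table (GRCm38.p6) were searched for the letters of the core. Windows of 300 bases, from 250 before to 50 after a start, were present for 7 of the 10 genes and not for Gclc, Hmox1 and Gsta4. The letters TGACNNNGC, or GCNNNGTCA for the other strand, occurred in 4 of the 10 windows of these genes, in 4 of the 7 genes, against 4071 of 32851 windows (12.4%) and 3781 of 27025 genes (14.0%) in the whole table. The 4 were Nfe2l2, Gclm and Txnrd1, with the match before the start, and Srxn1, with the match after it. A second motif of factors that read related letters, AP-1 (TGACTCA or TGAGTCA), was chosen after the windows were seen, and occurred in 1709 windows (5.2%) and 1607 genes (5.95%), among the 7 in Srxn1 alone. TGACTCA followed by GC satisfies both motifs. A match only says that the letters are there, and no binding was measured. The stretch before Nfe2l2 is shown because Nfe2l2 encodes the factor itself. It lies at chr2:75704664-75704913 on the minus strand, ahead of the Nfe2l2 gene, and 144 of its 250 bases lie in an exon of E030042O20Rik on the plus strand. Its match, in capitals, begins 240 bases before the start.
Nfe2l2: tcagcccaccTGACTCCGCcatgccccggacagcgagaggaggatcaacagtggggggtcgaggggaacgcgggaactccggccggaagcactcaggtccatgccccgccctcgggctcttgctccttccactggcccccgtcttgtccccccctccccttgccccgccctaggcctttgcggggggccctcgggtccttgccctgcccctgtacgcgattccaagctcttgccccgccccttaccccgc

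Gclc and Gclm encode the catalytic and the modifier subunit of glutamate-cysteine ligase, which makes the first and rate-limiting step of glutathione synthesis, and they had the lowest p values of the 10 between ASAH+ Etoh-Dox and ASAH- Etoh-Dox mice without passing the test. Gclc (ENSMUSG00000032350, chr9:77754535-77794485, plus strand) was at 192, 164, 195 and 163 CPM in ASAH- Etoh-Dox mice, at 241, 157, 219.8, 266 and 221 CPM in ASAH+ Etoh-Dox mice and at 212, 227, 169 and 159 CPM in ASAH+ Etoh mice. In ASAH+ Etoh-Dox mice, 4 of 5 lay above every ASAH- Etoh-Dox mouse, but mouse 2 was below all of them, so the groups overlapped. Group means were 179 ± 17.3 (SD, n = 4), 221 ± 40.5 (SD, n = 5) and 192 ± 32.9 (SD, n = 4) CPM. The log2 fold change of Gclc in ASAH+ Etoh-Dox over ASAH- Etoh-Dox mice was 0.31 ± 0.15 (SE), with an unadjusted p of 0.0523, an adjusted p of 0.9997 in edgeR and the first group higher in 16 of 20 pairs of mice. Over ASAH+ Etoh mice it was 0.20 ± 0.14 for ASAH+ Etoh-Dox (edgeR adjusted p of 0.784) and -0.10 ± 0.15 for ASAH- Etoh-Dox mice (0.882).

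Gclm (ENSMUSG00000028124, chr3:122245557-122270732, plus strand) was at 157, 162, 154 and 199 CPM in ASAH- Etoh-Dox mice, at 214, 176, 191, 210.1 and 212 CPM in ASAH+ Etoh-Dox mice and at 199, 252, 182 and 171 CPM in ASAH+ Etoh mice. Of the ASAH- Etoh-Dox mice, 3 of 4 were below all mice of both other groups, and mouse 4, at 199 CPM, was among them. Group means were 168 ± 21.1 (SD, n = 4), 200.5 ± 16.6 (SD, n = 5) and 201 ± 36.0 (SD, n = 4) CPM. For Gclm the log2 fold change was 0.25 ± 0.12 in ASAH+ Etoh-Dox over ASAH- Etoh-Dox mice, with an unadjusted p of 0.0508, an adjusted p of 0.9997 in edgeR and the first group higher in 18 of 20 pairs. It was -0.26 ± 0.12 in ASAH- Etoh-Dox over ASAH+ Etoh mice, with an unadjusted p of 0.0575 and an adjusted p of 0.562, and -0.13 without ASAH+ Etoh mouse 2. ASAH+ Etoh-Dox and ASAH+ Etoh mice differed by -0.0046 ± 0.12. Of the 31-base words of Gclm transcripts, 5.61% also occur in other genes, among them Ppia with 3.55%, so a small part of its reads could have been divided with them. The 250 bases before the start of Gclm, at chr3:122245307-122245556 on the plus strand and outside any annotated gene, hold 1 match to the antioxidant response element core on the other strand (in capitals), 134 bases before the start.
Gclm: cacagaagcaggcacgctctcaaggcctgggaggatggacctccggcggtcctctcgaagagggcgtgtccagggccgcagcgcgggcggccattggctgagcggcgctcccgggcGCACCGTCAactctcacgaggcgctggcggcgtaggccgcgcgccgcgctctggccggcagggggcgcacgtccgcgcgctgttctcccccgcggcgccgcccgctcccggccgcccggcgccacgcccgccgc

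Gsta4 and Gstm1 encode glutathione S-transferases, enzymes that join glutathione to electrophiles. GSTA4 is known for its activity toward 4-hydroxynonenal, a product of lipid peroxidation. Gsta4 (ENSMUSG00000032348, chr9:78182774-78209349, plus strand) was at 51.3, 58.9, 44.4 and 42.2 CPM in ASAH- Etoh-Dox mice, at 65.0, 50.1, 41.9, 58.4 and 57.9 CPM in ASAH+ Etoh-Dox mice and at 61.8, 59.1, 67.6 and 62.9 CPM in ASAH+ Etoh mice. Every ASAH- Etoh-Dox mouse was below every ASAH+ Etoh mouse, by the narrow gap between 58.9 and 59.1 CPM, and ASAH+ Etoh-Dox mice overlapped both groups. The log2 fold change of Gsta4 in ASAH- Etoh-Dox over ASAH+ Etoh mice was -0.35 ± 0.13, with an unadjusted p of 0.0178, an adjusted p of 0.455 in edgeR and 0 of 16 pairs higher. In ASAH+ Etoh-Dox mice it was -0.20 ± 0.12 over ASAH+ Etoh mice (edgeR adjusted p of 0.754) and 0.15 ± 0.12 over ASAH- Etoh-Dox mice (0.9997). Scaled in 3 other ways, Gsta4 was still the only one of the 10 whose ASAH- Etoh-Dox and ASAH+ Etoh mice did not overlap.

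Gstm1 (ENSMUSG00000058135, chr3:108012255-108017973, minus strand), the most abundant of the 10, was at 976, 1433, 1547 and 575 CPM in ASAH- Etoh-Dox mice, at 2131, 806, 904, 1101 and 959.7 CPM in ASAH+ Etoh-Dox mice and at 1004, 786, 1165 and 1135 CPM in ASAH+ Etoh mice. The groups overlapped widely, and ASAH+ Etoh-Dox mouse 1 was well above the other 12. Gstm1's log2 fold change was 0.06 ± 0.32 in ASAH+ Etoh-Dox over ASAH- Etoh-Dox mice and 0.21 ± 0.32 over ASAH+ Etoh mice. Without ASAH+ Etoh-Dox mouse 1 these values were -0.26 ± 0.25 and -0.13 ± 0.25. The first was also negative, at -0.16 ± 0.29, without ASAH- Etoh-Dox mouse 4, so that the signs depended on single mice. Counts of Gstm1 are uncertain, because 28.8% of the 31-base words of its transcripts occur in other genes such as Gstm3 and, for 22.6%, the pseudogene Gstm2-ps1. Gstm3 averaged 67.9 CPM and Gstm2-ps1 0.186 CPM. The 250 bases before the outer of its 2 RefSeq starts, at chr3:108017974-108018223 on the minus strand and outside any annotated gene, hold neither motif and are shown because Gstm1 varied together with Hmox1 between mice.
Gstm1: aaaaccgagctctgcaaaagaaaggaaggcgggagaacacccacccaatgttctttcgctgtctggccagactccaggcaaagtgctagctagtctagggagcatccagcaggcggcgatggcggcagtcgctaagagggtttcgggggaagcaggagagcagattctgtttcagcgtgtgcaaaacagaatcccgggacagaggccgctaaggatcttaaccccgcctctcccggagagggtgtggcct

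Txnrd1 encodes the cytosolic thioredoxin reductase and Srxn1 sulfiredoxin, which restores overoxidized peroxiredoxins. Txnrd1 (ENSMUSG00000020250, chr10:82833951-82897712, plus strand) was at 98.8, 124, 104 and 124 CPM in ASAH- Etoh-Dox mice, at 158, 111, 103, 102 and 112 CPM in ASAH+ Etoh-Dox mice and at 133, 138, 121 and 119 CPM in ASAH+ Etoh mice. ASAH+ Etoh-Dox mouse 1 was the highest of the 13, and the other 4 of its group were below every ASAH+ Etoh mouse. For Txnrd1 in ASAH+ Etoh-Dox over ASAH+ Etoh mice the log2 fold change was -0.12 ± 0.13 (edgeR adjusted p of 0.865), and -0.26 ± 0.09 without mouse 1 (adjusted p of 0.558). It was -0.18 ± 0.13 in ASAH- Etoh-Dox over ASAH+ Etoh mice. In ASAH+ Etoh-Dox over ASAH- Etoh-Dox mice it was 0.06 ± 0.13, and -0.07 ± 0.09 without mouse 1.

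Srxn1 (ENSMUSG00000032802, chr2:152105516-152111376, plus strand) was at 37.3, 41.1, 47.9 and 36.2 CPM in ASAH- Etoh-Dox mice, at 50.4, 33.7, 36.3, 34.5 and 27.7 CPM in ASAH+ Etoh-Dox mice and at 44.6, 31.5, 28.6 and 41.8 CPM in ASAH+ Etoh mice. Each group spanned much of the same range, and ASAH+ Etoh-Dox mouse 1 was again highest. On the log2 scale Srxn1 had a fold change of -0.15 ± 0.17 in ASAH+ Etoh-Dox over ASAH- Etoh-Dox mice (-0.295 ± 0.15 without mouse 1), and 0.15 ± 0.18 in ASAH- Etoh-Dox over ASAH+ Etoh mice. It was -0.0023 ± 0.17 in ASAH+ Etoh-Dox over ASAH+ Etoh mice, with an edgeR adjusted p of 0.999. The stretches before both genes hold matches, in capitals. That of Txnrd1 belongs to an internal start of 3 in RefSeq, at chr10:82858956-82859205 on the plus strand and inside the gene, and 79 of its 250 bases lie in exons of Txnrd1 or of Gm38560 on the minus strand and the rest in introns. It has the antioxidant response element core on the other strand, 92 bases before that start. That of Srxn1, at chr2:152105274-152105523 on the plus strand, reaches 8 bases into the first exon. It holds AP-1 letters 102 and 45 bases before the start, and a core match on the other strand begins at base 29 after the start, beyond the stretch shown.
Txnrd1: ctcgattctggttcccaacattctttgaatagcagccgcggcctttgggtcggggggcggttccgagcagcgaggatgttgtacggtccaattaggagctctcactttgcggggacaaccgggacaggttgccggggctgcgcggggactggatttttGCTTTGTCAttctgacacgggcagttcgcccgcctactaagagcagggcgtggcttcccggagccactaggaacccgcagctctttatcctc
Srxn1: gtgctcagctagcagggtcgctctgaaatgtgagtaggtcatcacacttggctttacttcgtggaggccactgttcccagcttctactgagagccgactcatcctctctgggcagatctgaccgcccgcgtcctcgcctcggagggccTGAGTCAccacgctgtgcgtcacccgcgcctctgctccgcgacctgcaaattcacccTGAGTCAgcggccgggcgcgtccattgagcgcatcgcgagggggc

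Nqo1 encodes NAD(P)H quinone dehydrogenase, a widely used readout of NRF2 activity. Nqo1 (ENSMUSG00000003849, chr8:107388225-107403206, minus strand) was low in these livers, at 6.89, 10.9, 14.7 and 8.19 CPM in ASAH- Etoh-Dox mice, at 14.8, 10.3, 9.04, 7.34 and 7.11 CPM in ASAH+ Etoh-Dox mice and at 10.7, 7.93, 8.58 and 12.95 CPM in ASAH+ Etoh mice. The 3 groups overlapped, and the range of ASAH+ Etoh mice, 7.93 to 12.95 CPM, lay within those of both Dox-fed groups. The log2 fold change of Nqo1 farthest from 0 was -0.06 ± 0.25, the value of ASAH+ Etoh-Dox over ASAH- Etoh-Dox mice. It was -0.04 ± 0.25 in ASAH+ Etoh-Dox over ASAH+ Etoh mice and 0.02 ± 0.27 in ASAH- Etoh-Dox over ASAH+ Etoh mice (edgeR adjusted p of 0.991). The 250 bases before its start, at chr8:107403206-107403455 on the minus strand with the last base in the first exon, hold neither motif. They are shown because Nqo1 varied together with Srxn1 and Hmox1 between mice.
Nqo1: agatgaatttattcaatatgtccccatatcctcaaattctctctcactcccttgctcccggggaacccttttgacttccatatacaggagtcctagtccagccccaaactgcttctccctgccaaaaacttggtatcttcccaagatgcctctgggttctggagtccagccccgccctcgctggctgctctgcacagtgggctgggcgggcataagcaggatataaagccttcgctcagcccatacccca

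Hmox1 (ENSMUSG00000005413, chr8:75093621-75100589, plus strand) encodes heme oxygenase 1, which opens the heme ring and is expressed in macrophages that take up red cells as well as in stressed hepatocytes. It was at 22.1, 26.8, 58.2 and 15.8 CPM in ASAH- Etoh-Dox mice, at 36.0, 18.3, 15.3, 23.1 and 15.0 CPM in ASAH+ Etoh-Dox mice and at 33.0, 11.2, 16.9 and 38.9 CPM in ASAH+ Etoh mice. ASAH- Etoh-Dox mouse 3 was highest, and within each group the highest mouse was 2.40 to 3.67 times the lowest. With this spread, the log2 fold change of Hmox1 was -0.51 ± 0.44 in ASAH+ Etoh-Dox over ASAH- Etoh-Dox mice (edgeR adjusted p of 0.9997), and 0.0022 ± 0.41 without ASAH- Etoh-Dox mouse 3. It was -0.21 ± 0.45 in ASAH+ Etoh-Dox over ASAH+ Etoh mice. In ASAH- Etoh-Dox over ASAH+ Etoh mice it was 0.30 ± 0.47, and -0.21 ± 0.43 without ASAH- Etoh-Dox mouse 3.

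**Figure D2:**
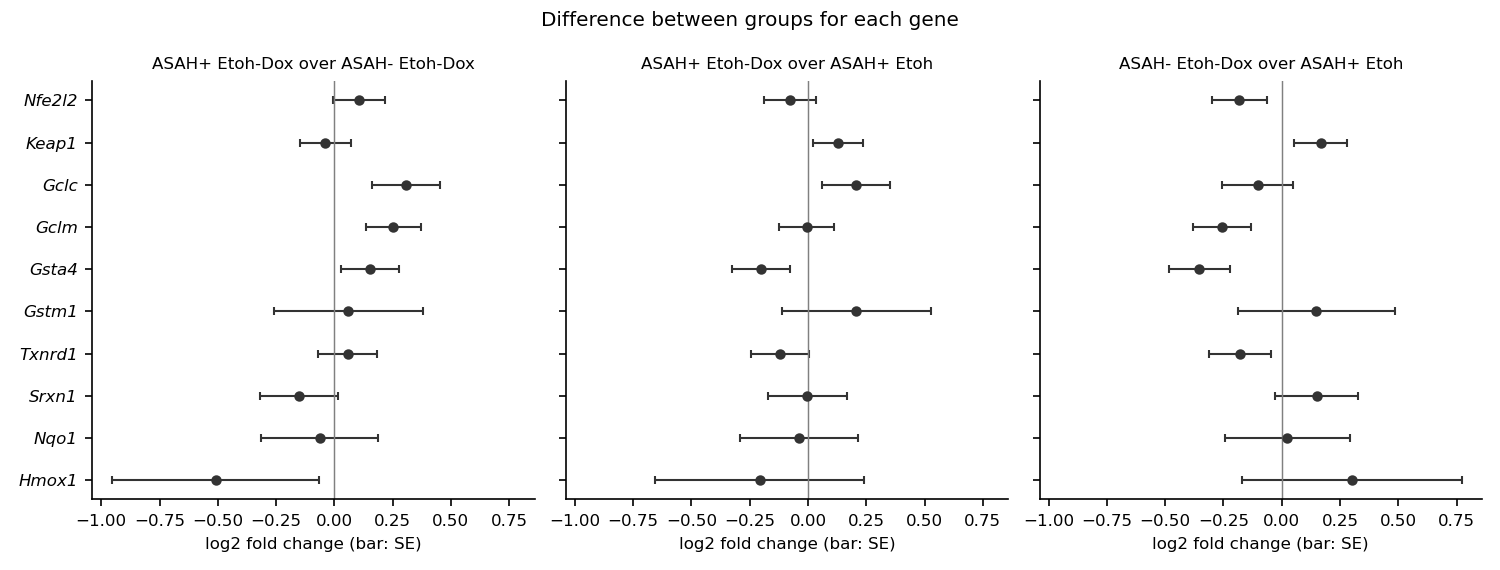
Log2 fold change with its standard error for each of the 10 genes in the 3 comparisons of groups, with 0 as a vertical line. The values run from -0.51 for Hmox1 to 0.31 for Gclc, both in ASAH+ Etoh-Dox over ASAH- Etoh-Dox mice, and none passed the test.

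Markers of macrophages and red cells differed between these mice too. The 8 Kupffer cell and macrophage markers, of which Cd5l was the most abundant and none was at 0, summed to 424, 427, 866 and 532 CPM in ASAH- Etoh-Dox mice, to 588, 599, 312, 498 and 316 CPM in ASAH+ Etoh-Dox mice and to 399.9, 320.2, 357 and 379 CPM in ASAH+ Etoh mice. All 8 were lower in ASAH+ Etoh-Dox than in ASAH- Etoh-Dox mice, and all 8 higher in either Dox-fed group than in ASAH+ Etoh mice, with 0 of 8 past the test in edgeR and 6 of 8 with an unadjusted p under 0.05 in ASAH- Etoh-Dox over ASAH+ Etoh mice. The 5 erythroid genes, led by Hbb-bs and with none at 0, summed to 231, 752, 1714 and 215 CPM, to 689, 241, 871, 355 and 646 CPM, and to 135, 159.8, 175 and 192 CPM in the same order of groups. All 5 were higher in both Dox-fed groups than in ASAH+ Etoh mice at an unadjusted p under 0.05 and none passed the test in edgeR. ASAH- Etoh-Dox mouse 3, with the highest Hmox1 at 58.2 CPM, had the highest sums of both lists. ASAH+ Etoh mice 1 and 4, with Hmox1 at 33.0 and 38.9 CPM, had the highest macrophage sums of their group, and ASAH+ Etoh-Dox mice 3 and 5, with Hmox1 at 15.3 and 15.0 CPM, the lowest of theirs. ASAH- Etoh-Dox mouse 4 had the second-highest macrophage sum of its group, 532 CPM, with its lowest Hmox1, 15.8 CPM. ASAH+ Etoh-Dox mouse 2 had the highest macrophage sum of its group, 599 CPM, with Hmox1 at 18.3 CPM. Mouse 1 of that group was close, at 588 CPM, with Hmox1 at 36.0 CPM. The erythroid sum was 871 CPM, the second-highest of the 13, in ASAH+ Etoh-Dox mouse 3, and 135 and 192 CPM in ASAH+ Etoh mice 1 and 4. The part of macrophages and red cells in the level of Hmox1 was not tested, and in whole liver fewer cells of a type and less RNA per cell cannot be told apart.

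Hepatocyte markers were present throughout. The 6 hepatocyte markers, led by Alb and with none at 0, summed to between 81629 CPM, in ASAH+ Etoh-Dox mouse 1, and 132960 CPM, in ASAH- Etoh-Dox mouse 3. In ASAH+ Etoh-Dox mice 5 of 6 were lower than in ASAH- Etoh-Dox mice and 4 of 6 lower than in ASAH+ Etoh mice, and 4 of 6 were higher in ASAH- Etoh-Dox than in ASAH+ Etoh mice, with 0 of 6 past the test in edgeR and 1 at an unadjusted p under 0.05 each time. Sinusoidal endothelial markers, led by Fcgr2b, were lower in ASAH+ Etoh-Dox mice for 6 of 6 genes against ASAH- Etoh-Dox mice and for 5 of 6 against ASAH+ Etoh mice, with 0 of 6 past the test in edgeR and 4 and 5 of 6 at an unadjusted p under 0.05. Their sums were 161.7, 136.8, 253 and 182 CPM in ASAH- Etoh-Dox mice, 137.5, 148, 121, 166.5 and 146 CPM in ASAH+ Etoh-Dox mice, and 218, 157, 193 and 198 CPM in ASAH+ Etoh mice. Their part in the values of the 10 genes was not tested.

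The other marker lists had 0 genes past the test in edgeR in any comparison. Stellate cell markers, led by Dcn and with none at 0, were lower for 6 of 6 genes in ASAH+ Etoh-Dox than in ASAH- Etoh-Dox mice, 2 of them at an unadjusted p under 0.05, and higher for 6 of 6, 3 of them at that p, in ASAH- Etoh-Dox than in ASAH+ Etoh mice. They summed to 263, 264, 312 and 293 CPM in ASAH- Etoh-Dox mice, to 244, 257, 248, 244 and 210.4 CPM in ASAH+ Etoh-Dox mice and to 270.0, 224, 230.3 and 274 CPM in ASAH+ Etoh mice. Pericentral hepatocyte markers were lower in ASAH+ Etoh-Dox mice for 6 of 6 genes against ASAH- Etoh-Dox and for 5 of 6 against ASAH+ Etoh mice, with 0 and 1 at an unadjusted p under 0.05. Periportal markers were higher for 3 of 6 in the first of these comparisons and for 2 of 6 in the second. Cholangiocyte markers were lower for 5 of 5 tested genes in ASAH+ Etoh-Dox than in ASAH- Etoh-Dox mice, and lymphocyte markers higher for 4 of 4 in both Dox-fed groups than in ASAH+ Etoh mice. Of 5 neutrophil markers 2 could be tested, and both were lower in ASAH+ Etoh-Dox mice than in either other group. Whether these cells contribute to the values of the 10 genes was not tested.

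One mouse stood out over the genes as a set. ASAH+ Etoh-Dox mouse 1 was the highest of the 5 mice of its group for 9 of the 10 genes, all but Gclc, whereas it was highest of the 5 for 21.4% of all genes tested. It was the highest of all 13 mice for 4 of the 10 genes, Nqo1, Srxn1, Txnrd1 and Gstm1, against 7.75% of all genes. In 61 other genes of the pathway that were tested, it was the highest of 13 for 33, and the highest of its group for 43. No other mouse was highest of 13 for more than 4 of the 61. These counts were made after its values had been seen and carry no test.

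Examples chosen after their values were seen were Gstp1, another glutathione S-transferase, and Gsta2, of the alpha class. Gstp1 was at 403 CPM in this mouse and at 143, 148, 222 and 188 CPM in the others of its group, while the other 2 groups spanned 129 to 250.4 CPM. Gsta2 was at 46.8 CPM against 18.5, 7.01, 18.4 and 13.8 CPM. The library of this mouse was also the deepest, at 35358711 counts, and its hepatocyte marker sum was the lowest of the 13. Their part in its values was not tested. Without this mouse 0 of the 10 genes passed the test in any comparison.

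**Figure D3:**
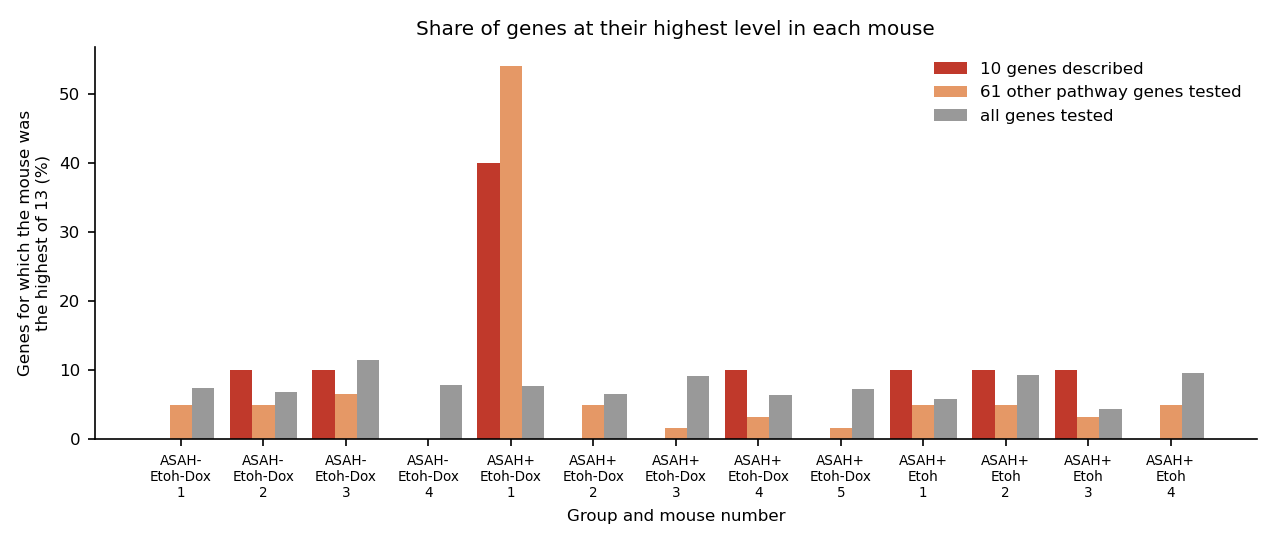
Share of genes, in percent, for which each mouse was the highest of the 13, for the 10 genes described, for the 61 other pathway genes tested and for all 14317 genes tested. ASAH+ Etoh-Dox mouse 1 was highest for 4 of 10, for 33 of 61 and for 7.75%, and every other mouse for at most 4 of the 61.

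Some pairs of the genes varied together between mice of the same group. With group means removed from log2 CPM, 39 of the 45 pairs of genes had a positive Pearson's r over the 13 mice, with a median of 0.359 and a range from -0.506, for Gclm and Hmox1, to 0.837. This depended on ASAH+ Etoh-Dox mouse 1, without which 27 of the 45 were positive and the median was 0.074. The lowest r, of Gclm and Hmox1, was 0.111 without ASAH- Etoh-Dox mouse 4 and ASAH+ Etoh mouse 2. It was -0.648 without ASAH+ Etoh-Dox mouse 1. In permutation tests with 100000 resamples within groups, 10 pairs had a p under 0.05, and 4 an adjusted p under 0.05 over the 45 pairs. All 4 lay among Hmox1, Nqo1, Srxn1 and Gstm1. No pair had an adjusted p under 0.05 by Spearman's rho (0 of 45).

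Nqo1 and Srxn1, of which only Srxn1 has AP-1 letters in the stretch given above, had an r of 0.837 (permutation p of 0.00115, adjusted 0.0291) and a rho of 0.78 (permutation p of 0.00425, adjusted 0.0858). For Hmox1 and Srxn1, r was 0.834 (permutation p of 0.0024, adjusted 0.0291) and rho 0.852 (permutation p of 0.00195, adjusted 0.0858). Nqo1 and Hmox1 had an r of 0.813 (permutation p of 0.00259, adjusted 0.0291) and a rho of 0.714 (permutation p of 0.0149, adjusted 0.168). For Hmox1 and Gstm1, r was 0.746 (permutation p of 0.00236, adjusted 0.0291) and rho 0.769 (permutation p of 0.00572, adjusted 0.0858).

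ASAH- Etoh-Dox mouse 3 and ASAH+ Etoh-Dox mouse 1 were the farthest from the median in Nqo1 and in Hmox1, the first-named genes of these pairs. The second gene of a pair was not used to choose the mice left out. Without both, r was 0.695 for Nqo1 and Srxn1 (permutation p of 0.0505), 0.777 for Hmox1 and Srxn1 (permutation p of 0.0895), 0.631 for Nqo1 and Hmox1 (permutation p of 0.0845) and 0.562 for Hmox1 and Gstm1 (permutation p of 0.0458). All 4 values of r were lower without them, least so for Hmox1 and Srxn1. Without ASAH+ Etoh-Dox mouse 1 alone, r was 0.752, 0.812, 0.773 and 0.693 in the same order. Gclc and Gclm, the subunits of 1 enzyme, had an r between -0.506 and 0.234 to each of the 4 genes. Without the mice farthest from the median in the first-named gene of a pair, these values ran from -0.642 (Nqo1 and Gclc) to 0.423 (Gclm and Gstm1). The mice left out thus differed between pairs. Gclm's r to Hmox1, Srxn1 and Gstm1 turned positive (0.111, 0.146 and 0.423) without ASAH- Etoh-Dox mouse 4 and ASAH+ Etoh mouse 2. Without ASAH+ Etoh-Dox mouse 1 alone, these values were -0.648, -0.422 and -0.593. Between Gclc and Gclm, r was 0.545 (permutation p of 0.0675, adjusted 0.234). It was 0.248 (permutation p of 0.615) without ASAH+ Etoh-Dox mouse 2 and ASAH+ Etoh mouse 4.

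**Figure D4:**
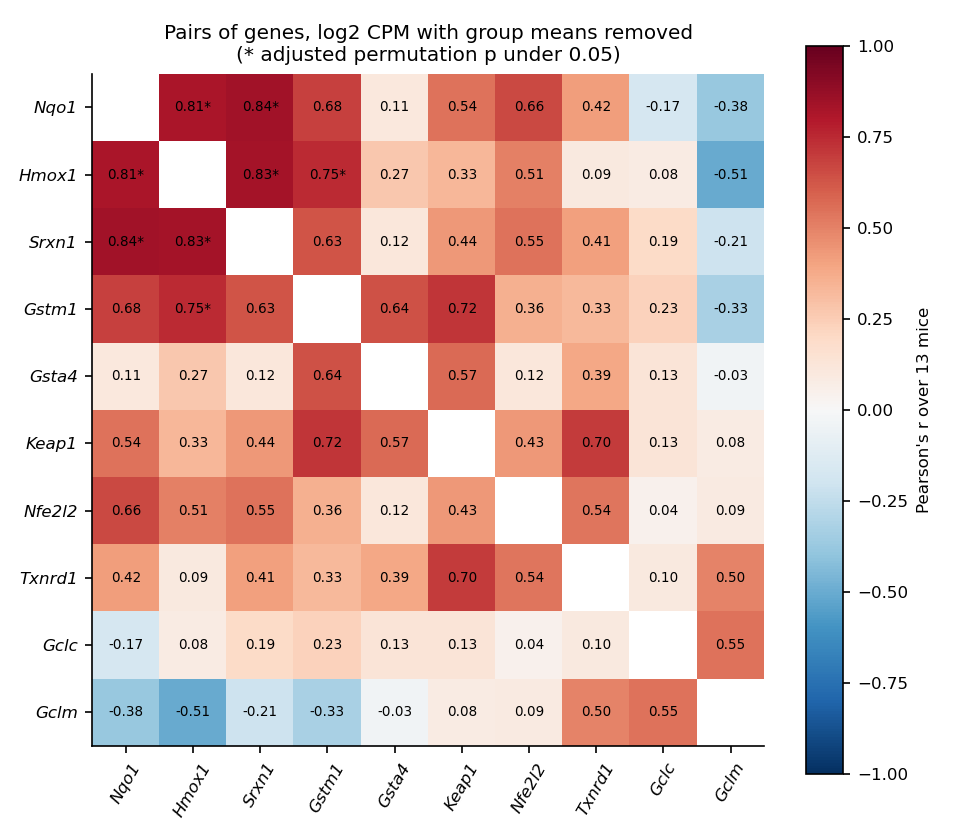
Pearson's r of the 45 pairs of genes over 13 mice, on log2 CPM with group means removed, with a star where the adjusted permutation p was under 0.05. The 4 starred pairs lie among Nqo1, Hmox1, Srxn1 and Gstm1. The lowest value, -0.51, belongs to Gclm and Hmox1. It was 0.111 without ASAH- Etoh-Dox mouse 4 and ASAH+ Etoh mouse 2, and -0.648 without ASAH+ Etoh-Dox mouse 1.

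Liver genes follow the time of day, and the phase differed between these mice. Dbp, an output gene of the circadian clock, and Arntl, which encodes its activator BMAL1, peak at opposite times. The log2 ratio of Dbp to Arntl ran from -0.96 to 6.49 in ASAH- Etoh-Dox mice, from -1.64 to 6.78 in ASAH+ Etoh-Dox mice and from 1.60 to 6.06 in ASAH+ Etoh mice. With group means removed, Txnrd1 followed this ratio with an r of 0.768 (permutation p of 0.00467, adjusted over 10 genes 0.0467) and a rho of 0.83 (permutation p of 0.00745, adjusted 0.0745). Without ASAH- Etoh-Dox mouse 1 and ASAH+ Etoh-Dox mouse 3, the farthest from the median of the ratio, r was 0.707 (permutation p of 0.0517). It was 0.823 without ASAH+ Etoh-Dox mouse 1. Nfe2l2 had an r of 0.607 (permutation p of 0.0454, adjusted 0.227) and a rho of 0.626 (permutation p of 0.0324, adjusted 0.162), and r was 0.247 without the same mice. The other 8 genes had an r between -0.321 and 0.409.

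**Figure D5:**
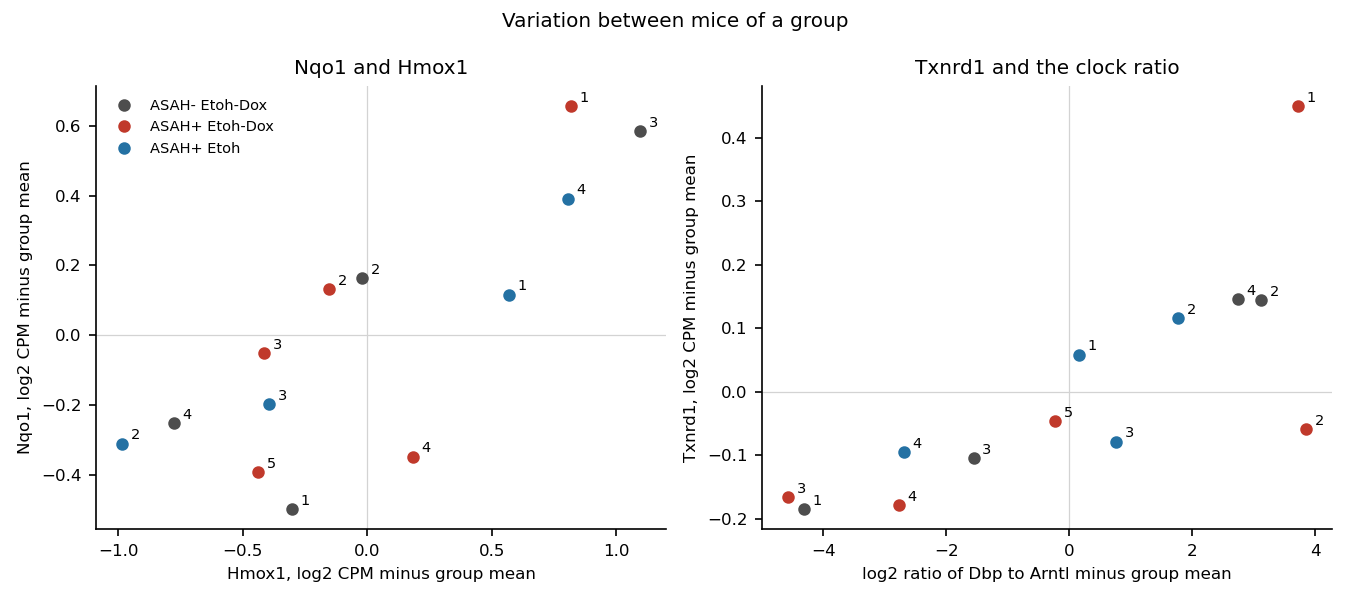
Deviations from the group mean in each of the 13 mice, with the mouse number beside each point, for Nqo1 against Hmox1 in log2 CPM (left) and for Txnrd1 in log2 CPM against the log2 ratio of Dbp to Arntl (right). Pearson's r was 0.813 on the left and 0.768 on the right, and ASAH+ Etoh-Dox mouse 1 lies high on both vertical axes.

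Among all 14317 genes tested, those most like Nqo1 over the 13 mice, by Pearson's r with group means removed, were Hexa (0.955) and Ctsd (0.946), which encode lysosomal hydrolases, and Rras (0.927), a small GTPase. Those most like Gclc were Wrnip1 (0.854), Tuba1b (0.846) and Tubb4b (0.833), the latter a pair of tubulins. Being the highest of so many values, they are given as a description.

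Of 64 further genes of the pathway, 61 were tested, all but Mgst2, Ggt1 and Slc7a11, and 0 passed the test in edgeR in any comparison. At an unadjusted p under 0.05, 1 was higher and 0 lower in ASAH+ Etoh-Dox over ASAH- Etoh-Dox mice, against 2.86% of all genes. The numbers were 2 and 3 in ASAH+ Etoh-Dox over ASAH+ Etoh mice, against 7.29%, and 1 and 3 in ASAH- Etoh-Dox over ASAH+ Etoh mice, against 9.19%. The median log2 fold change of the 61 genes was 0.02, 0.04 and 0.02 in this order, beside -0.0023, 0.01 and 0.02 over all genes tested. For the 10 genes it was 0.06, -0.02 and -0.04.

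Of the 8 NRF2 pathway regulators, Cul3, the scaffold of the ligase that KEAP1 serves, had the smallest p among those lower in both Dox-fed groups than in ASAH+ Etoh mice. Cul3 was at 72.4, 66.9, 62.2 and 70.7 CPM in ASAH- Etoh-Dox mice, at 71.8, 75.1, 73.1, 66.9 and 67.8 CPM in ASAH+ Etoh-Dox mice and at 83.7, 80.4, 80.5 and 76.9 CPM in ASAH+ Etoh mice. Every Dox-fed mouse was below every ASAH+ Etoh mouse. The log2 fold change of Cul3 over ASAH+ Etoh mice was -0.24 ± 0.07 in ASAH- Etoh-Dox (edgeR adjusted p of 0.389) and -0.18 ± 0.07 in ASAH+ Etoh-Dox mice (0.599), and neither passed. Among the higher genes Sqstm1, which encodes the autophagy receptor p62, had the smallest p, at 0.09 in ASAH+ Etoh-Dox and 0.12 in ASAH- Etoh-Dox over ASAH+ Etoh mice. Cul3 at 0.06 and Mafk, a small MAF, at -0.10 had the smallest p in ASAH+ Etoh-Dox over ASAH- Etoh-Dox mice. The median of the 8 was 0.04, -0.07 and -0.07 in the 3 comparisons.

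Of 22 other NRF2 targets, Abcc2, a canalicular exporter of glutathione conjugates, showed the same order. Abcc2 was at 504, 484, 502 and 513 CPM in ASAH- Etoh-Dox mice, at 561, 490.5, 449.8, 523 and 538 CPM in ASAH+ Etoh-Dox mice and at 607, 619.5, 600.5 and 587 CPM in ASAH+ Etoh mice, without overlap between Dox-fed mice and the others. Its log2 fold change over ASAH+ Etoh mice was -0.27 ± 0.08 in ASAH- Etoh-Dox (edgeR adjusted p of 0.389) and -0.24 ± 0.07 in ASAH+ Etoh-Dox mice (0.512). Me1, the cytosolic malic enzyme, which supplies NADPH, was at 133, 165, 160.0 and 137 CPM in ASAH- Etoh-Dox mice, at 291, 135, 199, 194 and 208 CPM in ASAH+ Etoh-Dox mice and at 225, 180.1, 207 and 202 CPM in ASAH+ Etoh mice. ASAH- Etoh-Dox mice were lowest, apart from ASAH+ Etoh-Dox mouse 2. The log2 fold change of Me1 in ASAH+ Etoh-Dox over ASAH- Etoh-Dox mice, 0.47 ± 0.17, had the smallest p of the list, 0.0131 unadjusted and 0.9997 adjusted in edgeR. It was -0.45 ± 0.17 in ASAH- Etoh-Dox over ASAH+ Etoh mice.

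The same rule named Blvrb, biliverdin reductase B, at 0.44 in ASAH+ Etoh-Dox over ASAH+ Etoh mice (edgeR adjusted p of 0.657), and Abcc3, an exporter to the blood, at -0.22 in ASAH+ Etoh-Dox over ASAH- Etoh-Dox mice. It also named Cbr3, a carbonyl reductase, at 0.71 in ASAH- Etoh-Dox over ASAH+ Etoh mice (adjusted p of 0.527), a gene with fewer than 1 CPM in every mouse. Groups of mice did not overlap for 0 of the 61 pathway genes in ASAH+ Etoh-Dox over ASAH- Etoh-Dox mice, against 0.44% of all genes higher and 0.447% lower. They did not overlap for 2 of 61, Cul3 and Abcc2, both lower, in ASAH+ Etoh-Dox over ASAH+ Etoh mice, against 1.49% of all genes lower. In ASAH- Etoh-Dox over ASAH+ Etoh mice, 4 of 61 did not overlap and were lower, Cul3, Abcc2, Me1 and Akr1b8, against 2.4% of all genes. A single one, Cbr3, was higher, against 3.09%, and Akr1b8 was named after its values were seen.

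Of 7 tested genes of glutathione synthesis, import and recycling, Gsr, which encodes glutathione reductase, was at 44.7, 43.5, 47.9 and 37.8 CPM in ASAH- Etoh-Dox mice, at 54.0, 36.7, 51.0, 49.2 and 52.4 CPM in ASAH+ Etoh-Dox mice and at 41.0, 43.1, 40.9 and 41.4 CPM in ASAH+ Etoh mice. In ASAH+ Etoh-Dox mice 4 of 5 were above all other mice and mouse 2 below all of them. Its log2 fold change was 0.23 ± 0.11 over ASAH+ Etoh mice (edgeR adjusted p of 0.680) and 0.16 ± 0.10 over ASAH- Etoh-Dox mice. Slc3a2, a subunit of the cystine importer, had the smallest p among the lower genes in both comparisons, at -0.10 and -0.13. The genes with the smallest p in ASAH- Etoh-Dox over ASAH+ Etoh mice were Gss, glutathione synthetase, at 0.17 and Chac2, which breaks glutathione down, at -0.09. The list's median was 0.02 in ASAH+ Etoh-Dox over ASAH- Etoh-Dox mice, 0.13 in ASAH+ Etoh-Dox over ASAH+ Etoh mice and 0.06 in ASAH- Etoh-Dox over ASAH+ Etoh mice.

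The 19 tested glutathione S-transferases had medians of -0.06, 0.05 and 0.11 in the same order, and 0 of them had an unadjusted p under 0.05. Those with the smallest p in each direction were Gsto1 (0.07) and Gstm6 (-0.32) in ASAH+ Etoh-Dox over ASAH- Etoh-Dox mice. They were Gstt1 (0.18) and Gstz1 (-0.07) in ASAH+ Etoh-Dox over ASAH+ Etoh mice, and Gstm2 (0.58) and Gsto1 (-0.13) in ASAH- Etoh-Dox over ASAH+ Etoh mice. Mu-class genes such as Gstm2 and Gstm6 resemble each other in sequence, so reads could have been divided among them. The 5 thioredoxin system genes had medians of 0.04, -0.01 and -0.01, also with 0 at an unadjusted p under 0.05. Mitochondrial Txnrd2 (0.16) and Txn2 (-0.12) had the smallest p in ASAH+ Etoh-Dox over ASAH- Etoh-Dox mice, and Txn2 (0.10) and Txnrd2 (-0.17) in ASAH- Etoh-Dox over ASAH+ Etoh mice. In ASAH+ Etoh-Dox over ASAH+ Etoh mice these were Txn1 (0.16) and Txnip, an inhibitor of thioredoxin, at -0.40 ± 0.27.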

How the data were processed

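RNaseq was analysed for 13 mouse livers in 3 groups. Per the labels and methods, the authors mapped reads with salmon to GENCODE M19 transcripts on GRCm38.p6 and summed them to genes with tximport. What the authors deposited is a table of estimated counts, unscaled and unfiltered. Whole numbers make up 100% of it, which salmon does not give by itself, so it had been rounded. Reads that fit several genes are divided by estimated abundance, which makes counts of near-identical genes uncertain. There were 0 columns without a sample. For symbols and positions, GENCODE M21 (GRCm38) was used, which holds 53355 of the 53392 identifiers.

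Genes were kept by the edgeR filter (14317 genes), normalized by TMM and fitted by quasi-likelihood with robust dispersion in edgeR 4.0.16 under R 4.3.3, with 3 group means over 13 mice and Benjamini-Hochberg adjustment over all genes at 0.1. CPM used TMM effective library sizes. As standard error, the size of the log2 fold change over the root of F was taken. The 22 pairs of mice within groups were all distinct libraries, with chi-square per degree of freedom of 12.1 to 65.8. Relations used log2 CPM with a prior count of 2, group means removed, and permutations within groups (numpy 2.4.6, scipy 1.17.1, Python 3.11.15).

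The members and gene lists were chosen with earlier results of these data known. Named were all 10 genes, every pathway gene past the threshold and, per list and comparison, the gene with the smallest p in each direction, pairs with an adjusted p under 0.05, and the 3 genes most like Nqo1 and Gclc. Alternatives were DESeq2 1.42.0 (all mice or 2 groups), its size factors in edgeR, limma-voom (limma 3.58.1), edgeR on 2 groups, no count filter, a floor of 10 counts per mouse, Asah1 out of the library totals, a replicate block, a clock covariate (log2 Dbp to Arntl), an adjusted p under 0.05, a prior count of 0.5 and each mouse left out (13 fits). The fits were tested on simulated data, for ASAH+ Etoh-Dox over ASAH- Etoh-Dox mice alone, in which DESeq2 called more unchanged genes than edgeR or limma-voom did. DESeq2 also recovered more of the changed genes there, and was run on more genes than the other tools.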

Additional observations from a re-analysis of the deposited data

Results flagged for a closer look

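In 8 of 108 groups of mice examined, over the 10 genes, 21 named pathway genes, Asah1, Sod1 and 3 marker sums, 1 mouse lay far from the others of its group. Chance gives about 1 in 20 such groups. Of the 30 groups of the 10 genes, 2 were of this kind, both through ASAH+ Etoh-Dox mouse 1, with Txnrd1 at 158.23 CPM and Gstm1 at 2131 CPM. The same mouse stood apart for Gstm2 at 104.0 CPM. ASAH+ Etoh-Dox mouse 2 was low for Gsr at 36.744 CPM, and ASAH- Etoh-Dox mouse 4 was low for Gstm6 at 25.137 CPM. Cbr3, which had few counts, stood apart in a mouse of each group, at 0.53052 CPM in ASAH- Etoh-Dox mouse 3, at 0.54035 CPM in ASAH+ Etoh-Dox mouse 2 and at 0.17348 CPM in ASAH+ Etoh mouse 4.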

How the results depend on the processing

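None of the 10 genes was called under any alternative in any comparison, and the lowest adjusted p was 0.154, for Gsta4 between ASAH- Etoh-Dox and ASAH+ Etoh mice in DESeq2 on those groups. Of 300 fold changes under alternatives other than leaving out a mouse, 292 kept their direction and 8 reversed, and the cause was not tested. In ASAH+ Etoh-Dox over ASAH+ Etoh mice, Gclm was 0.0088 and Srxn1 0.00065 in limma-voom, Srxn1 was 0.0048 without a count filter, and Gclm was 0.027 and Srxn1 0.0037 with the clock ratio as a covariate. All of these lie near 0. The scalings added for the overlap of groups, DESeq2 size factors, library totals alone and Asah1 left out of the totals, were chosen after seeing the data and kept Gsta4 as the only one of the 10 without overlap. All 55 relations kept their direction and side with a prior count of 0.5.

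With the replicate number as a replicate block, Srxn1 was 0.078 and Nqo1 0.034 in ASAH+ Etoh-Dox over ASAH+ Etoh mice, Nqo1 was 0.019 in ASAH+ Etoh-Dox over ASAH- Etoh-Dox mice, and the block left 1 and 0 genes called in the comparisons of ASAH+ Etoh-Dox with ASAH- Etoh-Dox and of ASAH- Etoh-Dox with ASAH+ Etoh mice. The block gives ASAH+ Etoh-Dox mouse 5, the only mouse with that number, no weight. No sign was seen that the numbers pair the mice. The 12 same-numbered pairs had a mean correlation of deviations of -0.0462 (-0.265 to 0.19), against 0.0126 (-0.287 to 0.308) for other pairs. Values with such ranges cannot exclude a pairing.

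Counts of all genes called depended on the tool. For the comparisons ASAH+ Etoh-Dox over ASAH- Etoh-Dox, ASAH+ Etoh-Dox over ASAH+ Etoh, and ASAH- Etoh-Dox over ASAH+ Etoh, they were 12, 98 and 149 in DESeq2 on all mice and 11, 114 and 168 on the groups compared, beside 2 each in edgeR. edgeR on the groups compared gave 1, 3 and 0, no count filter 4 in the second, the clock covariate 1 in the third, and an adjusted p under 0.05 gave 0 in the third. Leaving out a mouse gave 1 to 2, 2 to 8 (8 without ASAH+ Etoh mouse 2) and 0 to 2.

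With each mouse left out, 361 of 390 fold changes kept their direction and 29 reversed. In ASAH+ Etoh-Dox over ASAH- Etoh-Dox mice the ranges of those that reversed were -0.12 to 0.0653 for Keap1, -0.27 to 0.17 for Nqo1, -0.77 to 0.0022 for Hmox1, -0.0737 to 0.106 for Txnrd1 and -0.26 to 0.25 for Gstm1. In ASAH+ Etoh-Dox over ASAH+ Etoh mice they were -0.13 to 0.0069 for Nfe2l2, -0.25 to 0.10 for Nqo1, -0.0836 to 0.123 for Gclm, -0.48 to 0.0749 for Hmox1, -0.16 to 0.11 for Srxn1 and -0.13 to 0.32 for Gstm1. In ASAH- Etoh-Dox over ASAH+ Etoh mice they were -0.21 to 0.15 for Nqo1, -0.21 to 0.57 for Hmox1 and -0.0402 to 0.37 for Gstm1. The others kept their direction with every mouse left out, but most moved by over 1.5 times. In ASAH+ Etoh-Dox over ASAH- Etoh-Dox mice these were Nfe2l2 (0.0203 to 0.18), Gclc (0.23 to 0.41), Gclm (0.21 to 0.35), Srxn1 (-0.295 to -0.0589) and Gsta4 (0.0818 to 0.25). For ASAH+ Etoh-Dox over ASAH+ Etoh mice they were Keap1 (0.0365 to 0.17), Gclc (0.12 to 0.31), Txnrd1 (-0.26 to -0.0745) and Gsta4 (-0.28 to -0.13). For ASAH- Etoh-Dox over ASAH+ Etoh mice they were Nfe2l2 (-0.26 to -0.10), Keap1 (0.0623 to 0.21), Gclc (-0.20 to -0.0130), Gclm (-0.35 to -0.13), Txnrd1 (-0.23 to -0.13), Srxn1 (0.0289 to 0.26) and Gsta4 (-0.45 to -0.29). The lowest count of any of the 10 genes in a mouse was 151, for Nqo1.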
